A study of Mus musculus with 2 samples.

Results

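Mir208a, Mir208b and Mir499 are the miRNA genes that lie inside the heart and slow-muscle myosin genes Myh6, Myh7 and Myh7b. They were taken by symbol from GENCODE M21, and all 3 were found among the 2202 miRNA genes of the deposited tables. MicroRNA sequencing, which reads the short RNAs of a tissue, was done on total RNA from whole hearts of female mice of the strain B6CASTF1/J at the age of 10 days. The series holds 1 group with 2 hearts, biological replicate 2 and biological replicate 1. Each has a separate biosample and library. The labels number the biosamples as different females but cite the same donor entry for both, which was read as an entry for the strain, so n = 2 rests on that reading. The labels name no treatment and no second tissue, age or strain, so every comparison here is between genes of a heart or between the 2 hearts.

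Each gene is copied out with the intron of its host, and the hairpin cut from that intron yields the mature miRNA that loads into Argonaute and recognises its targets mainly through the seed, bases 2 to 8. Myh6 encodes the alpha myosin heavy chain, the main motor of the adult mouse heart, and Myh7 the beta chain, the main motor of the fetal ventricle and of slow skeletal fibres. Myh7b encodes a further sarcomeric myosin. In mice, miR-208a is known for its part in stress-dependent remodelling of the heart and in the control of beta myosin, and miR-208b and miR-499 for their part in slow-fibre identity.

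The mature sequences are shown first because they tell the 3 genes apart and also link them. They are RefSeq sequences on GRCm38.p6, matched by symbol for 3 of 3 genes, written 5′ to 3′ with the seed in capitals. The arm that carries UAAGAC at bases 2 to 7 is given for each gene.
miR-208a-3p: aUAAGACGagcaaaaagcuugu
miR-208b-3p: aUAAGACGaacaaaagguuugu
miR-499-5p: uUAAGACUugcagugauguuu
The miR-208a-3p and miR-208b-3p sequences, each 22 nt long, had the same seed and were identical at 19 bases. They differed by G10A, A16G and C18U, with the miR-208a-3p base first and positions counted from 1 at the 5′ end. Over the first 8 bases, miR-499-5p (21 nt) differed from miR-208a-3p by A1U and G8U, so bases 2 to 7 (UAAGAC) were common to all 3. Of the 1738 mature mouse miRNAs in the RefSeq table, 2 carried the 7-base seed UAAGACG, 1 carried UAAGACU and 3 carried UAAGAC at bases 2 to 7. Those 3 were the products of Mir208a, Mir208b and Mir499.

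The whole hairpins are shown because the deposited counts are per gene and do not separate the arms. The 5p and 3p mature forms are in capitals, 5′ to 3′ on the transcribed strand.
Mir208a: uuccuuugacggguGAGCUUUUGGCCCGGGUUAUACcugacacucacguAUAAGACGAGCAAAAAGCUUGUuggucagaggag
Mir208b: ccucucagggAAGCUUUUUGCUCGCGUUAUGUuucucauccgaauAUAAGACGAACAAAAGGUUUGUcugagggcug
Mir499: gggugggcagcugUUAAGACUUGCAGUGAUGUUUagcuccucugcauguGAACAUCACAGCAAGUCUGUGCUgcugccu
The shared bases UAAGAC stand on the 3p arm of the Mir208a and Mir208b hairpins and on the 5p arm of the Mir499 hairpin. Aligned end to end, the hairpins of Mir208a and Mir208b were identical at 66.7% of the columns, those of Mir208b and Mir499 at 60.0% and those of Mir208a and Mir499 at 48.5%. No run of 16 nt or more was shared, on either strand, between a member and any of the other 2201 miRNA genes. The longest was 14 nt, between miR-208a-3p and the opposite strand of miR-208b-5p, and the longest for Mir499 was 13 nt. The tables keep multiply placed reads in a category of their own and do not count them on genes. Copies of the members elsewhere in the genome were not searched for here.

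Mir208a lies on chromosome 14 (chr14:54949060-54949142, minus strand, 83 bp, mm10), in intron 29 of the 38 introns of the principal Myh6 transcript. Mir208b lies on the same chromosome and strand (chr14:54975700-54975776, 77 bp), in intron 31 of the 40 introns of the principal Myh7 transcript. Counted from the other end, both have 9 introns after their own, so they occupy the same place relative to the 3′ end of these neighbouring genes. The 2 miRNA genes are 26557 bp apart, and each is the nearest annotated miRNA gene to the other. Mir499 lies on chromosome 2 (chr2:155622880-155622958, plus strand, 79 bp), in intron 19 of the 41 introns of the principal Myh7b transcript, with 22 introns after it. The host introns were of similar length, 542 bp in Myh6, 461 bp in Myh7 and 481 bp in Myh7b. None of the members overlapped an exon of its host or another annotated miRNA gene.

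**Figure D1:**
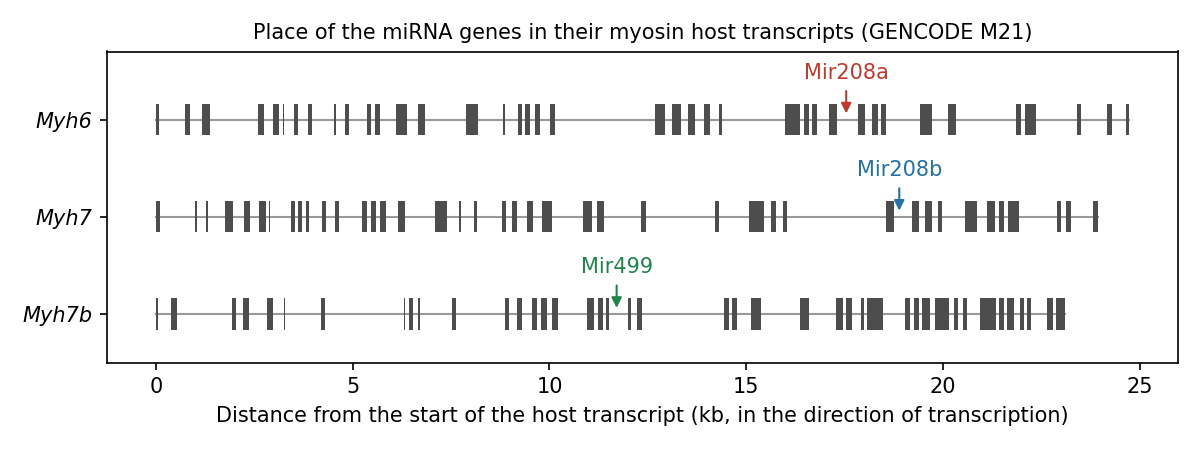
Exons (dark boxes) and introns (lines) of the principal Myh6, Myh7 and Myh7b transcripts, plotted as distance in kb from the transcript start in the direction of transcription, with an arrow at each miRNA gene. Mir208a and Mir208b sit in the later part of their hosts, with 9 introns after them, and Mir499 sits near the middle of Myh7b, with 22 introns after it.

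Of 14 annotated genes of the numbered Myh family, these 3 and Myh3 held a miRNA gene on their own strand. Myh3 encodes the embryonic skeletal myosin heavy chain, and the gene in its intron is Mir6923 (chr11:67099804-67099875, plus strand). Mir6923 had 0 counts in both hearts, which allows up to 0.655 CPM (counts scaled to the same total on named genes in each library) in replicate 2 and 0.704 CPM in replicate 1. It was looked up for its place in a myosin gene and was named after its counts had been seen. Intervals and floors here cover counting error only.

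All 3 members were well counted in both hearts. Mir499 was the highest, at 18911 counts (4126 CPM) in replicate 2 and 23187 counts (5442 CPM) in replicate 1, or 4784 ± 931 CPM (SD, n = 2). Mir208a had 6263 and 12599 counts, which are 1367 and 2957 CPM, or 2162 ± 1125 CPM. Mir208b had 4781 and 5304 counts, which are 1043 and 1245 CPM, or 1144 ± 143 CPM. The order Mir499, Mir208a, Mir208b was the same in both hearts and the CPM ranges of the 3 genes did not overlap. Over the hearts, however, the gap between the means of Mir208a and Mir208b was smaller than the SD of Mir208a alone, so that step in the order is not larger than the spread between hearts. In RNA from whole tissue, fewer muscle cells and less of a miRNA per cell cannot be told apart.

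The libraries held 4583025 counts on named genes in replicate 2 and 4260561 in replicate 1. The tables place 346 of 2202 miRNA genes at 10 or more counts in both hearts, called detected from here on, and 1434 at 0 in both. The 3 members are among the detected genes, whose median level of 85.1 CPM was below that of each member. Mir499 ranked 36 in replicate 2 and 32 in replicate 1 among all miRNA genes, Mir208a ranked 63 and 42, and Mir208b ranked 74 and 72. Reads at more than 1 position, 38.0% of all reads in replicate 2 and 38.9% in replicate 1, are not counted on genes. Levels, ranks and shares here and in the next paragraphs are therefore of counted reads, and genes with near-identical copies can stand too low. The most abundant gene, Mir378a, stood at 152441 ± 2742 CPM. In each heart the members had more counts than 78.6% to 90.8% of the detected genes.

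**Figure D2:**
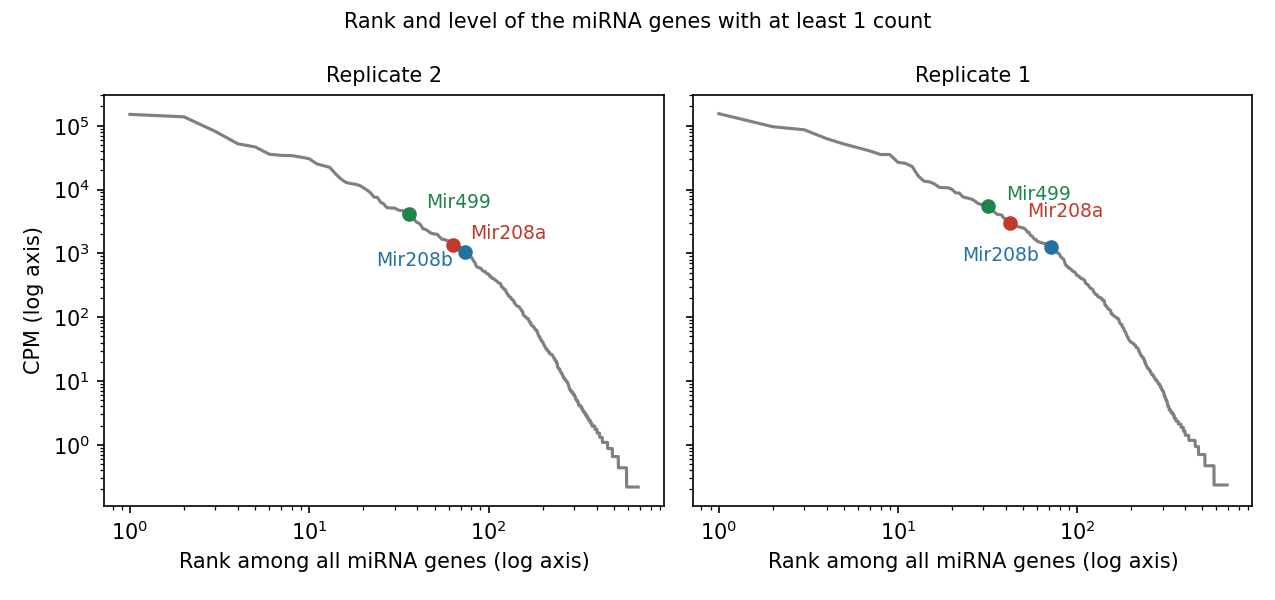
Level in CPM (log axis) against rank (log axis) for all miRNA genes with at least 1 count, replicate 2 in the left panel and replicate 1 in the right panel, with the 3 members as coloured points. Mir499 holds rank 36 and 32, Mir208a 63 and 42 and Mir208b 74 and 72, so Mir208a is the member whose rank differs most between the hearts.

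Many miRNA genes share the arrangement of the members, lying in an intron of a coding gene on its own strand without touching an exon. There were 733 such genes, of which 125 were detected, at a median of 93.5 CPM over the detected ones. By mean CPM, Mir499 was number 14, Mir208a number 22 and Mir208b number 29 among the 733. The members together took 1.55% of the counts of this class in replicate 2 and 2.32% in replicate 1. The class as a whole took 42.2% and 41.6% of all gene counts, led by Mir378a in Ppargc1b and Mirlet7g in Wdr82.

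Only 1 arm of each gene carries UAAGAC, and the counts do not separate the arms. A sum over the members is therefore of whole genes and not of the forms with these bases. Added up as a group, the 3 genes had 29955 counts in replicate 2 and 41090 in replicate 1. That is 0.654% of the gene counts in replicate 2 (exact 95% Clopper-Pearson interval 0.646 to 0.661) and 0.964% in replicate 1 (0.955 to 0.974), or 0.809% ± 0.220 (SD, n = 2). The intervals do not overlap, so the hearts differed by more than counting error in the group's share. Mir499, the product of Myh7b, supplied 63.1% of the group in replicate 2 (62.6 to 63.7) and 56.4% in replicate 1 (55.9 to 56.9). Mir208a, from the alpha myosin gene, supplied 20.9% (20.4 to 21.4) and 30.7% (30.2 to 31.1). Mir208b, from the beta myosin gene, supplied 15.96% (15.5 to 16.4) and 12.9% (12.6 to 13.2). Mir499 was the larger part in both hearts, and Mir208a was the member whose part differed most between them.

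Ratios between members of the same library need no scaling between hearts. Mir499 exceeded Mir208a 3.02-fold in replicate 2 and 1.84-fold in replicate 1, with exact 95% intervals of 2.93 to 3.11 and 1.80 to 1.88. It exceeded Mir208b 3.96-fold (3.83 to 4.08) and 4.37-fold (4.24 to 4.50). Mir208a exceeded Mir208b 1.31-fold (1.26 to 1.36) and 2.38-fold (2.30 to 2.45). All 6 ratios were above 1, in the order of the levels. The ratio was then compared between the hearts for the 3 pairs, with Fisher's exact test (two-sided, Benjamini-Hochberg adjusted over the 3). This tests these libraries and not a condition. The log2 ratio of Mir208a over Mir208b differed by -0.86 (replicate 2 minus replicate 1, exact test adjusted p = 7.29e-123), and that of Mir499 over Mir208a by 0.71 (exact test adjusted p = 2.64e-164). The log2 ratio of Mir499 over Mir208b differed by -0.14, which also passed the exact test (adjusted p = 6.85e-06). The 2 pairs with Mir208a moved more than the pair without it. Counts compare different sequences, which can be ligated and placed with unequal efficiency, so the size of a ratio between genes is less certain than its difference between hearts.

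**Figure D3:**
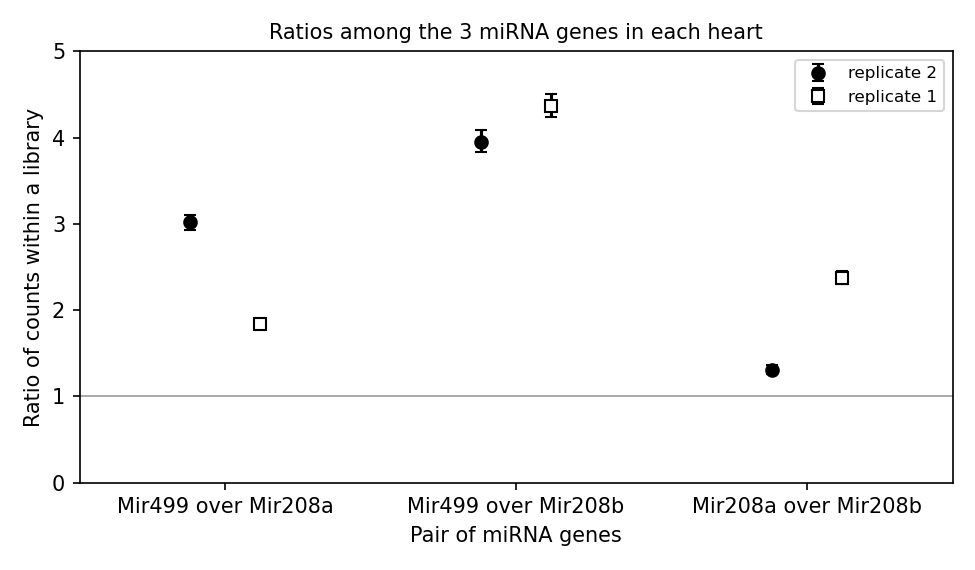
Ratio of counts between members within a library, for 3 pairs, in replicate 2 (filled circles, left) and replicate 1 (open squares, right), with exact 95% intervals that cover counting error. Mir499 over Mir208b lies at 3.96 and 4.37, while Mir208a over Mir208b lies at 1.31 and 2.38.

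Set between the hearts, all 3 members were lower in replicate 2 than in replicate 1. With library sizes scaled by the trimmed mean of M values (TMM), the log2 ratio of replicate 2 over replicate 1 was -1.05 for Mir208a (exact 95% interval -1.09 to -1.003). It was -0.33 for Mir499 (-0.36 to -0.31) and -0.19 for Mir208b (-0.25 to -0.13). By the exact binomial test with Benjamini-Hochberg adjustment over 375 miRNA genes, all 3 members differed beyond counting error, with an adjusted p of 2.68e-122 for Mir499 and 1.95e-10 for Mir208b. For Mir208a the p was below the smallest number the computation holds. The background is high: 55.2% of the genes tested passed in either direction and 29.1% passed as lower in replicate 2, so passing the test is common among these genes. It measures reads of 2 libraries against counting error, with no estimate of how hearts vary.

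The size of the difference tells the members apart better. Among the 346 detected genes the median absolute log2 ratio was 0.34 and the median ratio was -0.02. A larger absolute ratio than that of Mir208a was found for 28 of the 346 genes (8.09%), against 175 (50.6%) for Mir499 and 237 (68.5%) for Mir208b. The SD over the hearts was 52.0% of the mean for Mir208a, 19.4% for Mir499 and 12.5% for Mir208b, beside a median of 16.1% over the detected genes. Mir499 and Mir208b lay near that median, and Mir208a lay well above it.

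**Figure D4:**
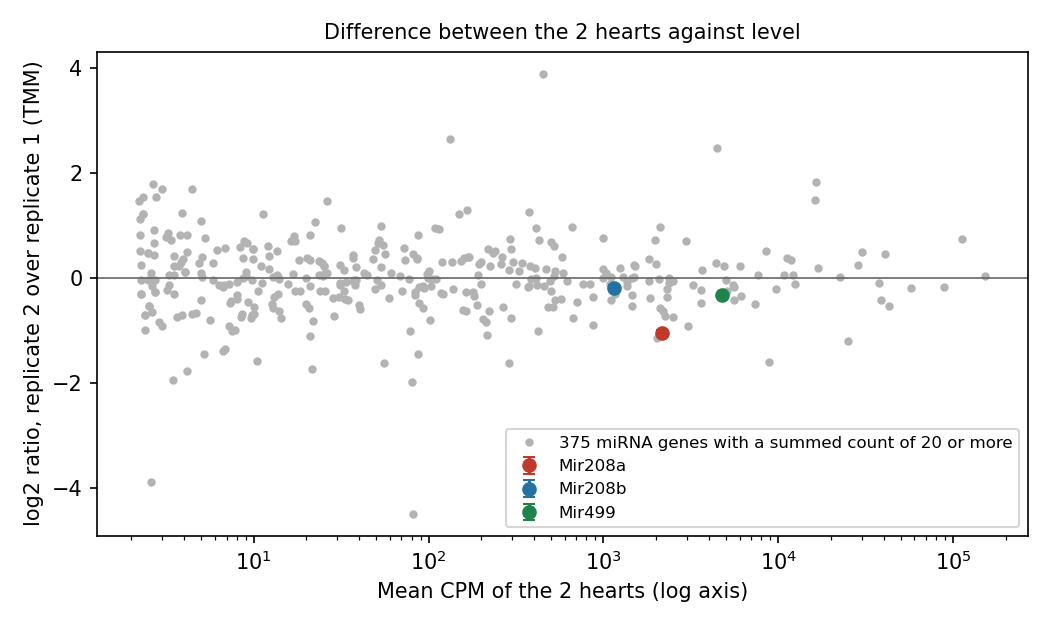
TMM-scaled log2 ratio of replicate 2 over replicate 1 against mean CPM (log axis) for the 375 miRNA genes tested, with at least 20 counts over both hearts (grey), with the members coloured and their exact 95% intervals, some smaller than the point. The members lie below 0, at -1.05 for Mir208a, -0.33 for Mir499 and -0.19 for Mir208b.

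Several markers of other cell types also differed between the hearts. Over all 375 genes tested 55.2% passed the test, so nothing is read from which markers passed. The endothelial genes Mir126a and Mir126b summed to 137860 CPM in replicate 2 and 86322 CPM in replicate 1, nearly all from Mir126a. The red blood cell genes Mir451a and Mir144 summed to 749.5 and 268 CPM, and both were higher in replicate 2. The liver gene Mir122 stood at 141 and 76.3 CPM. The smooth muscle genes Mir143 and Mir145a summed to 35952 and 53735 CPM, of which Mir143 was lower in replicate 2 and Mir145a did not pass the test. The leukocyte genes Mir142, Mir223 and Mir150 summed to 864 and 889 CPM, while Mir142 was higher in replicate 2 and the other 2 did not pass the test. Of the 6 neuronal genes of the Mir124a and Mir9 groups, 5 were at 0 in both hearts, and Mir9-3 had 2 counts in replicate 2 and 0 in replicate 1. Each of the 6 shares a run of 26 to 33 nt with another miRNA gene, and multiply placed reads are not counted on genes, so these zeros do not show that the neuronal miRNAs were absent. The part of these differences in the lower levels of the members was not tested.

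The members can be set beside the other genes commonly called myomiRs, the muscle miRNAs. That list has 11 genes, all found in the tables, and 9 of them detected. In both hearts the 3 members were the highest of the 11. Mir486, an intronic gene of Ank1 expressed in red cells as well as muscle, followed at 298 CPM in replicate 2 and 281 CPM in replicate 1. Mir1a-2 had 53.5 and 43.4 CPM. Mir206, the skeletal muscle relative of the miR-1 genes, had 15.3 and 19.01 CPM. Mir133b had 4.15 and 2.58 CPM. Mir133a-1 had 2.62 and 7.75 CPM, Mir1a-1 had 2.62 and 2.58 CPM, and Mir1b and Mir133a-2 had 3 and 4 counts in replicate 2 and 11 and 6 in replicate 1. The miR-1 and miR-133a genes are known as abundant in heart, but their copies share runs of 28 nt (Mir1a-1, Mir1a-2 and Mir1b) or 31 nt (Mir133a-1 and Mir133a-2), and Mir133b shares 21 nt with Mir133a-1. Multiply placed reads are not counted on any copy, so these levels do not rank them below the members. Mir206 had no such run with another gene (13 nt at most). For Mir486 the longest was also 13 nt, but its opposite-strand partner Mir3107 was left out of that comparison. Reads placed on both would not be counted, and whether the level of Mir486 stands too low was not tested.

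**Figure D5:**
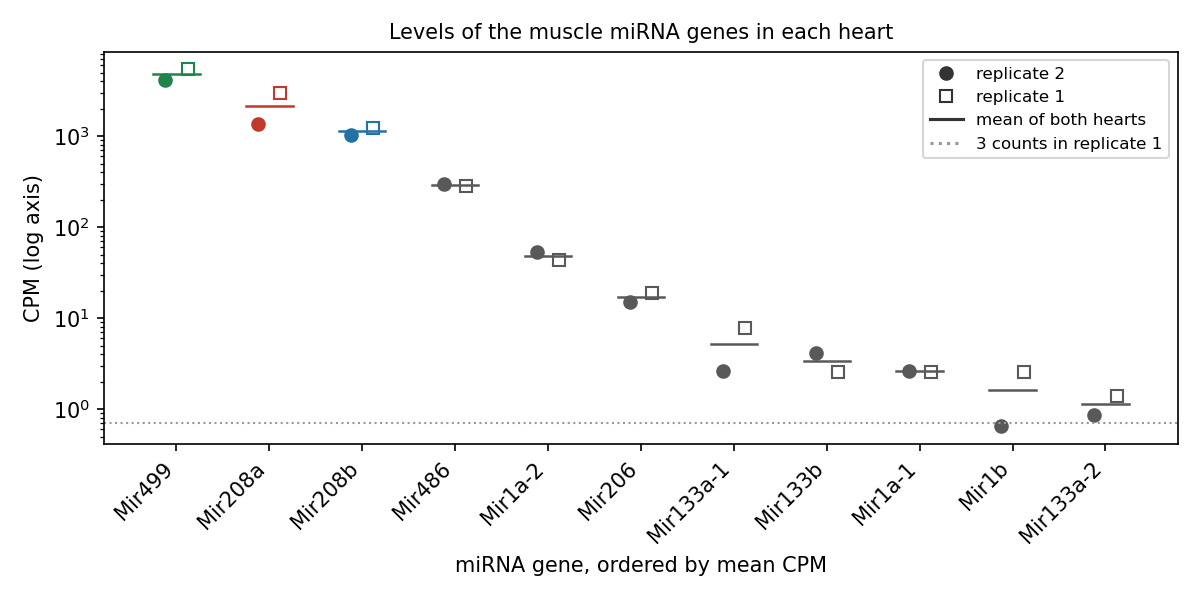
CPM (log axis) of the 11 muscle miRNA genes in replicate 2 (filled circles, left) and replicate 1 (open squares, right), with the mean of both hearts as a line and the level of 3 counts in replicate 1 as a dotted line. Mir499, Mir208a and Mir208b are the 3 highest in both hearts, Mir208b the lowest of them at 1043 and 1245 CPM, and Mir486 lies at 298 and 281 CPM. Multiply placed reads are not counted on any copy of the miR-1 and miR-133a genes, so the order does not rank these below the members. Mir486 was not compared with its opposite-strand partner Mir3107, so its level may stand too low as well, which was not tested.

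Between the hearts the list went both ways. Of the 9 list genes that had enough counts for the test, 4 were lower in replicate 2 (the 3 members and Mir133a-1), 2 were higher (Mir486 and Mir1a-2) and 3 did not pass the exact binomial test. Over all genes tested 55.2% passed and 29.1% passed as lower in replicate 2, so nothing is read from these counts. The median log2 ratio of the 9 was -0.19, beside -0.02 for all 375 genes tested. The 9 include the 3 members, and this median is the value of Mir208b itself, so it does not describe the list apart from the members. The log2 ratio was 0.37 for Mir1a-2 (0.09 to 0.65) and 0.15 for Mir486 (0.04 to 0.26). It was -1.46 for Mir133a-1 (-2.59 to -0.51), which rests on 12 counts in replicate 2 and 33 in replicate 1.

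The genes nearest to each member in level were found by Euclidean distance in log2(CPM + 1) over the 2 libraries, among the detected genes. With 2 libraries this likeness is of level only. Nearest to Mir208a was Mir298 (distance 0.17), a gene with no coding host on its strand, with 1226 CPM in replicate 2 and 2840 CPM in replicate 1, followed by Mir140 (0.27), in Wwp2, and Mir320 (0.31). Nearest to Mir208b were Mir20a (0.09), of the miR-17-92 cluster, Mir27a (0.10) and Mir106b (0.16), in an intron of Mcm7. Nearest to Mir499 were Mirlet7f-2 (0.14), in an intron of Huwe1, Mir744 (0.24), in an intron of Map2k4, and Mir100 (0.32). No member was among the 3 genes nearest to another member.

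The strand of the reads was the same for every member. No read lay on the strand opposite to the gene, in either heart, and the counts without regard to strand equalled those on the gene strand for all 3. An absence of opposite-strand reads allows up to 3 of them, which is at most 0.0627% of the counts of a member, the value for Mir208b in replicate 2. CPM without strand were nevertheless higher, since genes with a partner on the other strand, among them Mir378a, lose their reads as ambiguous and the total falls to 3108772 in replicate 2 and 3107037 in replicate 1. Mir499 then stood at 6083 and 7463 CPM, Mir208a at 2015 and 4055 CPM and Mir208b at 1538 and 1707 CPM. The ratios among the members are the same in both columns.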

How the data were processed

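The authors deposited raw read counts, 1 table for each library, made on mm10 with GENCODE M21 per the file headers. The aligner was not given in the sources used here, nor were the counter and its settings. The tables have no column names. Column 3 was taken as the gene strand, since genes with no opposite miRNA gene had 69 reads in replicate 2 and 93 in replicate 1 on the other strand, and column 2 as unstranded. Library sizes exclude 4 rows of read categories: in replicate 2 and replicate 1 they are reads at more than 1 position (38.0% and 38.9% of all reads), unmapped reads (12.2% and 16.9%), reads outside features (4.89% and 4.71%) and ambiguous reads (0 by strand). The tables do not split the parental alleles of the hybrid strain.

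From the counts, CPM, shares, exact intervals (95%) and ratios (TMM from edgeR 4.0.16, prior count 0.5) were computed in R 4.3.3 and Python 3.11.15 with scipy 1.17.1. Genes whose 2 counts summed to at least 20 entered the exact binomial test between libraries (adjusted p threshold 0.05). The test was tried on simulated counts that held counting error only, which cannot show how it behaves when hearts vary. Reads were taken as whole mature molecules, so CPM was not divided by length; counts per gene length were an alternative, as were unstranded counts, DESeq2 1.42.0 size factors, other denominators and other minimums. The named genes were the 3 members, the muscle list, the 3 nearest genes of each member, the most abundant gene and the marker lists. Mir6923, for its place in a myosin gene, and Mirlet7g, as the second of the intronic class, were named after their values were seen. The members and lists were chosen with earlier results of these data known.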

Additional observations from a re-analysis of the deposited data

How the results depend on the processing

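Of 73 values under alternatives, 14 leave out a replicate. Of those that change a setting, 44 were kept and 15 moved. None lost its call or changed sign. Kept means within 1 SD of the hearts for levels and ranks, inside the counting interval for ratios between members, no change of side at a test's threshold and within 1.5 times for counts of genes. Ratios between members could not move without strand, since the members have no opposite-strand reads. Without strand, the mean level was 1622.5 CPM for Mir208b (rank 67) and 6773 CPM for Mir499 (rank 29), and the summed share was 1.14%. The mean of Mir208a rose too, to 3035 CPM (rank 46), and counts as kept only because its SD of 1125 CPM is wide. With all reads as the denominator, the means were 2002 CPM for Mir499, 891 CPM for Mir208a and 480 CPM for Mir208b, and the summed share was 0.337%. Without Mir378a the mean of Mir208b was 1350 CPM. The means of Mir499 (5647 CPM) and Mir208a (2553 CPM) rose as well but stayed within 1 SD. Per gene length, Mir208b ranked 69, the log2 ratio of Mir499 over Mir208a was 1.67 in replicate 2 and 0.95 in replicate 1, and that of Mir208a over Mir208b was 0.28 and 1.14. These moves follow from the construction of each alternative, through its total or its divisor.

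The difference between hearts passed for all 3 members under TMM, total counts, DESeq2 size factors, no strand and no Mir378a. The log2 ratio of replicate 2 over replicate 1 lay from -1.12 to -1.01 for Mir208a, from -0.41 to -0.29 for Mir499 and from -0.26 to -0.15 for Mir208b. The genes differing numbered 186 to 214 under these and the other count minimums, against 207. The DESeq2 size factors were both 1. With a single heart, levels were 1367 CPM or 2957 CPM for Mir208a, 1043 or 1245 CPM for Mir208b and 4126 or 5442 CPM for Mir499, ranks 63 or 42, 74 or 72 and 36 or 32, and the summed share 0.654% or 0.964%. A level or share from a single heart always stays within 1 SD of the mean, so these say nothing of stability. Of the ranks, that of Mir208b in replicate 2 alone (74, against 72) lay outside 1 SD. Mir208a moved most between the hearts. No paired analysis was possible because the series has 1 group. Depth limits only genes near the floor, not the members.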
